A study of Mus musculus with 16 samples.

Results

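The subunits of the oxidative phosphorylation complexes were followed in 16 RNA sequencing libraries of mouse pluripotent stem cells. Members were taken from the count table by gene symbol alone, without use of their values. The symbols were those of the Ndufa, Ndufb, Ndufc, Ndufs and Ndufv genes of complex I, Sdha to Sdhd of complex II, names starting with Uqcr (complex III), names starting with Cox4 to Cox8 (complex IV), names starting with Atp5 (complex V), and the mitochondrially encoded mt-Nd, mt-Co, mt-Cytb and mt-Atp genes. A further 6 rows named as pseudogenes were dropped. This gave 96 members of 34042 rows, of which 83 are nuclear and 13 mitochondrial. The nuclear members belong to complex I (37), complex II (4), complex III (8), complex IV (17) and complex V (17). The mitochondrial members belong to complex I (7), complex III (1), complex IV (3) and complex V (2). After a filter on low counts 94 members were tested, and the untested ones were Cox6a2 and Cox8b, isoforms of complex IV known from heart and skeletal muscle. Atp5s and Atp5sl matched by name and are not core subunits of complex V.

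Formative stem cells (FS), a pluripotent state placed between naive and primed cells, were grown in A3XR medium and gave 6 libraries. Of these, 3 came from line 5ar1 (replicates 1 to 3, passages 10, 12 and 14) and 3 from line 5ar3 (replicates 4 to 6, passages 12, 4 and 5). The 4 libraries of naive embryonic stem (ES) cells were from line E14IV-C, kept in 2iL medium (passages 12, 13, 15 and 20). Epiblast stem cells (EpiSCs), the primed state, gave 3 libraries of line AF32 in AF medium (EpiSC_AF, passages 13, 14 and 15) and 3 of line AFX6 in AFX medium (EpiSC_AFX, passages 12, 5 and 8). The composition of the media is not given in the sources used here. Replicates were passages of a line. Where FS is fitted as 1 group, the spread behind the p-values holds the difference between its lines as well as that between passages. All comparisons in that fit share this estimate of the spread. Only the fit by line, used for 5ar1 against 5ar3, measures the spread between passages alone. The ES and EpiSC groups hold 1 line each, so line and medium cannot be told apart there.

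Oxidative phosphorylation is the chain of inner-membrane complexes that oxidises NADH and succinate, passes the electrons through coenzyme Q and cytochrome c to oxygen, and uses the resulting proton gradient to make ATP. Complexes I, III, IV and V mix subunits encoded in the nucleus with subunits encoded in the mitochondrial genome, whereas complex II is wholly nuclear. The mitochondrial genome is transcribed from both strands into long precursors that are cut into rRNAs, tRNAs and mRNAs, and mt-Nd6 is the only mRNA on the light strand. Naive and primed mouse pluripotent cells are known for differing use of respiration and glycolysis, with respiration more active in the naive state.

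Total counts ranged from 22069338 to 33290250 per library. ES replicate 1 stood apart: the mitochondrial rRNA mt-Rnr2 took 38.1% of its counts, against 9.96% to 25.0% in the other 15 libraries, and its normalisation factor was 0.626 against 0.887 to 1.19. The main counts against ES are therefore also given without it, as are values that it moves. The labels were compared with marker genes, with levels as CPM, counts scaled to a common library size. The summed level of 6 naive markers was 2222 to 3469 CPM in ES and at most 12.7 CPM in any other library. Markers of formative and primed cells, summed over 4 genes, were at 833 to 2244 CPM in FS and 39.6 to 103 CPM in ES. Fibroblast markers, 7 genes, summed to 42.3 to 86.3 CPM in EpiSC_AF, 20.4 to 44.2 CPM in FS, 18.8 to 27.7 CPM in EpiSC_AFX and 5.31 to 5.42 CPM in ES, where Dcn was at 0. Streak and endoderm markers, 5 genes, summed to 174 to 425 CPM in EpiSC_AF and to at most 62.1 CPM elsewhere. Of 6 tested fibroblast markers, 3 were lower and 1 higher in FS than in EpiSC_AF (edgeR adjusted p under 0.05). Their log2 fold changes ran from -3.88 to 3.62, so the sum hides markers that went the other way. Germ cell markers, 4 genes, summed to 67.6 to 128 CPM in ES and at most 15.9 CPM elsewhere. Neuroectoderm markers, 3 genes, summed to 2.33 to 40.4 CPM in FS. These sums do not show that other cell types were present, and any part of such cells in the results was not tested.

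Nuclear subunit genes are known as targets of the regulators NRF1, ETS factors of the GABP type and YY1, so promoter sequence is shown for some members named below. RefSeq promoters (GRCm38.p6) were matched for 66 of the 83 nuclear members, and the 250 bases before the start were searched on both strands. The core letters of the NRF1 motif (GCGCA, any base, then GCGC) lay in 14 of the 71 promoters of these members (19.7%), against 1228 of 32851 promoters in the table (3.74%). The 14 promoters belong to 13 genes. By complex they are 6 of 32 members of complex I, 2 of 3 of complex II, 0 of 5 of complex III, 1 of 13 of complex IV and 4 of 13 of complex V. The ETS letters CGGAAGT lay in 6 of the 71 promoters of members (8.45%), against 4.92% of all. The YY1 letters AAGATGGCG lay in 1 of the 71 (1.41%), against 0.606% of all. A match is a run of letters and was not tested as a binding site. Windows of 90 bases are printed 5′ to 3′ on the strand of the gene, all upstream of the RefSeq start, with the NRF1 letters in capitals. The first 3 are subunits that hold the letters and had a lower mean outside ES, although the FS and ES libraries overlapped for Sdhd. The last 3 are tissue-restricted isoforms of complex IV without the letters.
Ndufb4 (chr16:37654369-37654458, minus strand): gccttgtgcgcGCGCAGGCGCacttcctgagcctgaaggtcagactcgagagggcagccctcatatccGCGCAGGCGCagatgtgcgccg
Cox6a1 (chr5:115349026-115349115, minus strand): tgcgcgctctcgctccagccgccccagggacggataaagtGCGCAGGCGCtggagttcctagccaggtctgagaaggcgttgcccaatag
Sdhd (chr9:50603879-50603968, minus strand): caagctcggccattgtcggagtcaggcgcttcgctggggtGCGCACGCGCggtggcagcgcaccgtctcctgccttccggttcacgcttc
Cox7b2 (chr5:71548206-71548295, minus strand): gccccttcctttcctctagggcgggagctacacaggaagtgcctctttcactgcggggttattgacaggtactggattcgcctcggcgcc
Cox6b2 (chr7:4753095-4753184, minus strand): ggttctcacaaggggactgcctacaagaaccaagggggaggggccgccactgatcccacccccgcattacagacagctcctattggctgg
Cox7a1 (chr7:30184081-30184170, plus strand): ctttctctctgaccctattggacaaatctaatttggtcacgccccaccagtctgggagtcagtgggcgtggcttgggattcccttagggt

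Gene positions of the GENCODE annotation place the start of 2 genes inside the printed window. The Ndufb4 gene reaches position 37654453 on the minus strand, so most of its window lies inside the gene, and Cox7a1 starts at 30184144. For Cox6a1 and Sdhd the GENCODE starts, at 115348981 and 50603812, also differ from the RefSeq starts but lie outside the windows. The Ndufb4 window holds the letters at 2 places, and the Cox6a1 and Sdhd windows at 1 place each. Among the printed genes, the isoforms held fewer CpG in the 250 bases before the start. There were 9 before Cox7b2, 8 before Cox6b2 and 4 before Cox7a1, against 21 before Ndufb4, 26 before Cox6a1 and 27 before Sdhd. The latter were picked for the letters, which themselves hold CpG. Low CpG was not particular to the isoforms. Common subunits without the letters ranged widely, with 4 before Ndufc2, 5 before Cox7b and 28 before Ndufv2, all picked after their values were seen. Between FS and ES the 13 members with the letters had a median log2 fold change of -0.53, with 9 called lower by edgeR (adjusted p under 0.05, as for 29.9% of all genes), and the 52 tested members without them had a median of -0.65, with 39 called lower. The medians without ES replicate 1 were -0.46 with the letters (6 lower) and -0.44 without them (33 lower, 2 higher).

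Mitochondrially encoded mRNAs, summed over the 13 genes, were highest in ES and lowest in FS. The sum was 27118 to 29840 CPM in 3 ES libraries and 49581 CPM in ES replicate 1. In FS the lowest library was at 8197 CPM, the median at 11278 CPM and the highest at 12994 CPM. The 3 EpiSC_AFX libraries were at 15306, 13468 and 18044 CPM, and the 3 EpiSC_AF libraries at 19581, 15357 and 18368 CPM. No FS library reached the lowest EpiSC library, and no EpiSC library reached the lowest ES library. As shares of all counts the 13 mRNAs took 1.22% ± 0.191 in FS (mean ± SD, n = 6), 1.56% ± 0.0793 in EpiSC_AFX (n = 3), 1.83% ± 0.134 in EpiSC_AF (n = 3) and 2.76% ± 0.240 in ES (n = 4). The 95% Wilson interval of a single library's share was at most 0.00706 percentage points to either side, which covers counting error only. In these bulk libraries fewer cells of a type and less RNA per cell cannot be told apart.

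The nuclear members moved less. Their summed level was 9299 to 9406 CPM in 3 ES libraries and 12551 CPM in ES replicate 1. FS libraries lay between 5908 and 7732 CPM with a median of 6783 CPM. EpiSC_AFX lay between 6596 and 7448 CPM and EpiSC_AF between 6829 and 7497 CPM, so the FS and EpiSC ranges overlapped and all lay below ES on this scale. As shares of all counts the nuclear members took 0.645% to 0.848% in FS and 0.785% to 0.893% in ES, and there FS replicate 3 lay above ES replicate 1. Atp5a1 and Atp5b, the catalytic core subunits of the ATP synthase, made up 38.4% ± 1.15 of the nuclear sum in FS (SD, n = 6) and 35.1% ± 3.02 in ES (SD, n = 4), or 36.6% ± 0.720 in ES without replicate 1 (SD, n = 3).

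**Figure D1:**
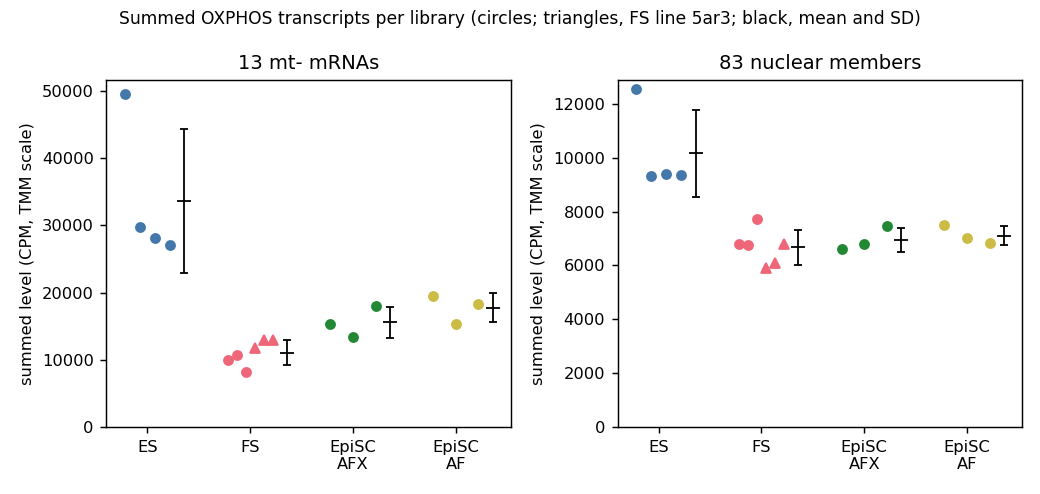
Summed level in CPM (TMM scale) of the 13 mt- mRNAs and of the 83 nuclear members, 1 point per library, with the mean and SD of each group in black. ES lies above every other group in both panels, with ES replicate 1 highest, and FS lies below both EpiSC groups in the mt- panel.

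FS and ES were compared first. All 13 mitochondrial mRNAs were called lower in FS (edgeR adjusted p under 0.05), against 29.9% of all genes called lower, 32.9% called higher and 62.8% called in either direction. The 4 ES and 6 FS libraries did not overlap for any of the 13. The median log2 fold change was -1.48, with a range from -1.79 to -1.04, against 0.04 over all genes. Of 81 tested nuclear members, 57 were called lower and 2 higher, with a median of -0.57. The median was the same with Cox7b2 and Cox4i2, which are at the detection floor in some groups, set to their bounds. Without ES replicate 1 the counts were 13 lower among mitochondrial members, with a median of -1.22, and 47 lower and 5 higher among nuclear members, with a median of -0.42. With total counts as the only scaling the median of all genes moved to 0.40, with 42.8% called higher and 17.9% lower, and the nuclear calls were 26 lower and 8 higher. Relative to the median of all genes, the nuclear median was -0.61 under both scalings, and the mitochondrial median -1.52 and -1.46. A change of scaling shifts all genes by nearly the same amount, so it cancels in this difference by construction. These relative medians therefore do not test whether the fall depends on the scaling.

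Among the mitochondrial mRNAs of complex I, the NADH dehydrogenase, mt-Nd1 was at 3429, 3338, 2795 and 3079 CPM in the ES libraries and between 714 and 1401 CPM in FS, with a median of 1045 CPM. Its log2 fold change was -1.59 (SE 0.18, adjusted p 5.55e-07 by edgeR), and without ES replicate 1 it was -1.55. The smallest change of the 13 was that of mt-Nd2, with 1767, 1804, 1403 and 1688 CPM in ES and 547 to 1132 CPM in FS (median 767 CPM), a log2 fold change of -1.04 (SE 0.19, adjusted p 0.000153 by edgeR). The light-strand mRNA mt-Nd6 was at 621, 368, 323 and 346 CPM in ES and 102 to 214 CPM in FS (median 143 CPM), a log2 fold change of -1.48 (SE 0.22, adjusted p 1.29e-05 by edgeR). This lies inside the range of the 12 heavy-strand mRNAs. The other 4, mt-Nd3, mt-Nd4, mt-Nd4l and mt-Nd5, had log2 fold changes of -1.47, -1.42, -1.45 and -1.33, and mt-Nd3 moved to -0.95 without ES replicate 1.

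Cytochrome b (mt-Cytb), the mitochondrial subunit of complex III, was at 2053, 2123, 1733 and 2108 CPM in ES and 542 to 1001 CPM in FS (median 836 CPM). Its log2 fold change was -1.33 (SE 0.18, adjusted p 4.23e-06 by edgeR). In complex IV, cytochrome c oxidase, mt-Co1 encodes the catalytic subunit and was the most abundant member per length. It was at 26842 CPM in ES replicate 1 and 12965 to 14864 CPM in the other ES libraries, and at 3636 to 6454 CPM in FS (median 5239 CPM). Its log2 fold change was -1.74 (SE 0.19, adjusted p 5.22e-07 by edgeR), or -1.45 without ES replicate 1. For mt-Co3, ES replicate 1 was at 5973 CPM, the other ES libraries at 1668, 1785 and 1453 CPM and FS at 589 to 961 CPM (median 802 CPM). The log2 fold change of mt-Co3 was -1.79 (SE 0.30, adjusted p 6.49e-05 by edgeR) with that library and -1.06 without it, so its place as the largest change of the 13 rests on ES replicate 1. For mt-Co2 the log2 fold change was -1.48, and for the complex V subunits mt-Atp8 and mt-Atp6 it was -1.57 and -1.56.

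The proportions of the mitochondrial mRNAs to each other also differed between groups. Per length, mt-Cytb stood at 16.9% ± 5.08 of mt-Co1 in the 4 ES libraries (mean ± SD), 21.0% ± 4.76 in the 6 FS libraries, 32.4% ± 1.88 in the 3 EpiSC_AFX libraries and 31.9% ± 1.74 in the 3 EpiSC_AF libraries. For mt-Nd2 the values were 15.4% ± 4.39 in ES, 23.5% ± 6.86 in FS, 32.7% ± 3.57 in EpiSC_AFX and 32.2% ± 5.82 in EpiSC_AF. The 2 EpiSC groups differed by less than their SD in both ratios, and the ES and FS libraries overlapped in both.

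Nuclear copies of mitochondrial sequence share reads with several members. Between 98.0% and 100% of the 50-base words of mt-Co2, mt-Co3, mt-Atp6, mt-Nd3 and mt-Nd4l occur in annotated pseudogenes such as Gm28437 and Gm28661, and 62.2% of those of mt-Nd4 and 51.1% of those of mt-Co1. The copy of mt-Co3 held 0.982 to 1.01 counts per count of mt-Co3 in all 16 libraries, and that of mt-Atp6 1.31 to 1.39. Levels of these members are therefore uncertain. With the copies added to these mt- rows, 13 of 13 mitochondrial mRNAs were still called lower in FS than in ES, with a median of -1.48. The copies rose and fell with their mt- rows, so adding them could move a difference only little. The remaining mitochondrial mRNAs had no copy added. These calls therefore do not test how far the copies bear on the differences. Among nuclear members the largest shared portions were 68.5% in Atp5l, 43.2% in Uqcrb, 38.3% in Atp5g2 and 37.0% in Ndufb4. The genes mt-Atp8 and mt-Atp6, mt-Nd4l and mt-Nd4, and mt-Nd5 and mt-Nd6 overlap on the mitochondrial genome, and the strand setting of the counting is not given in the sources used here.

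**Figure D2:**
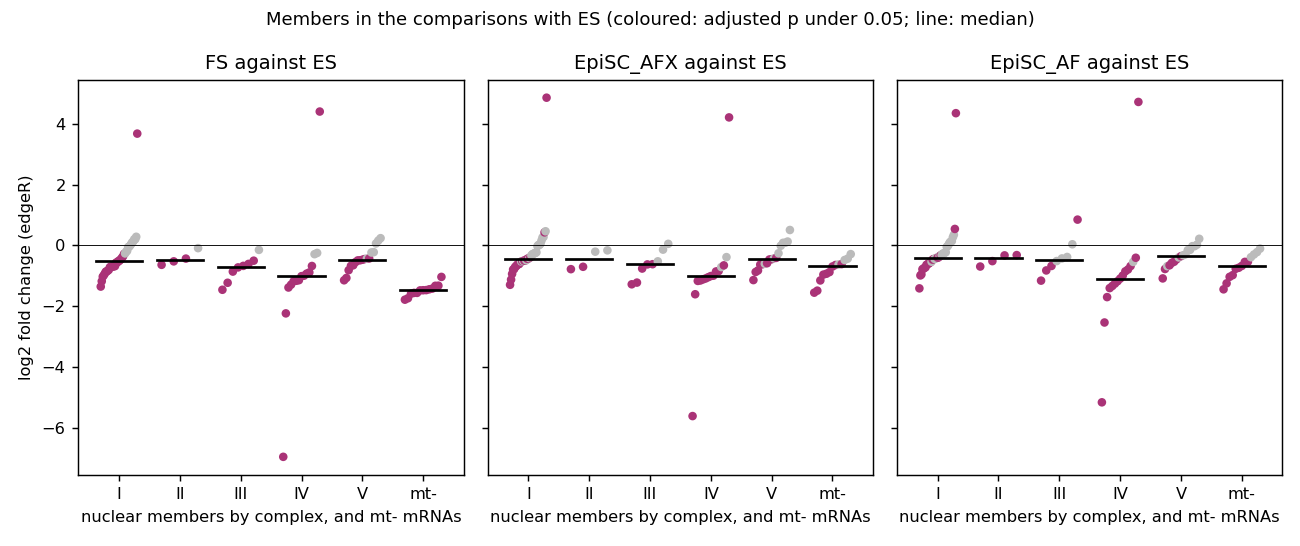
Log2 fold change (edgeR) of every tested member against ES, by complex for nuclear members and together for the mt- mRNAs, with a line at the median of each set and members with an adjusted p under 0.05 coloured. The mt- set lies at -1.48 in FS and near -0.7 in both EpiSC groups, and complex IV has the lowest median of the nuclear sets in all 3 comparisons.

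Complex IV had the lowest median of the nuclear complexes in FS, at -1.01, with 12 of 15 tested subunits called lower and 1 higher. The medians were -0.52 in complex I (24 of 37 lower, 1 higher), -0.48 in complex II (3 of 4 lower), -0.70 in complex III (7 of 8 lower) and -0.47 in complex V (11 of 17 lower). Without ES replicate 1 complex IV stood at -0.70, with 11 lower, and the other complexes between -0.33 and -0.56. With total counts as the only scaling, calls lower in FS were left for 10 of 15 in complex IV, 9 of 37 in complex I, 0 of 4 in complex II, 3 of 8 in complex III and 4 of 17 in complex V, and calls higher for 6, 1 and 1 in complexes I, IV and V. Under that scaling 17.9% of all genes were called lower and 42.8% higher. The difference between complexes was not tested.

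In complex I the largest fall was that of Ndufb4, an accessory subunit of the membrane arm. Its libraries were at 28.8, 12.3, 10.3 and 12.6 CPM in ES and 4.79 to 7.11 CPM in FS (median 6.31 CPM), a log2 fold change of -1.36 (SE 0.24, adjusted p 8.07e-05 by edgeR), or -0.92 without ES replicate 1, where Ndufs8 was lower still at -1.01. The groups did not overlap in either case. Of the 37 subunits 12 did not pass the test, including core subunits such as Ndufs1, which carries iron-sulfur clusters, at a log2 fold change of -0.27, and Ndufs7, at 0.099. Both were chosen after their values were seen.

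Complex II, succinate dehydrogenase, also works in the citric acid cycle. Its flavoprotein Sdha was at 216, 235, 240 and 229 CPM in ES and 150 to 170 CPM in FS (median 159.5 CPM), a log2 fold change of -0.53 (SE 0.09, adjusted p 4.03e-05 by edgeR). The iron-sulfur subunit Sdhb was at 179, 123, 125 and 133 CPM in ES and 77.4 to 105 CPM in FS, a log2 fold change of -0.64 (SE 0.12, adjusted p 0.000163 by edgeR). For Sdhd, a membrane anchor, ES libraries were at 187, 103, 99.2 and 107 CPM and FS at 68.2 to 119.9 CPM, so the ranges overlapped; its log2 fold change was -0.44 (adjusted p 0.0392 by edgeR), and the call was lost without ES replicate 1 (-0.17, adjusted p 0.272 by edgeR). Sdhc, the other anchor, did not pass the test, with 73.8, 83.9, 87.4 and 88.5 CPM in ES and 74.3 to 83.9 CPM in FS (log2 fold change -0.092, adjusted p 0.388 by edgeR).

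In complex III, the cytochrome bc1 complex, Uqcrb fell most. It was at 56.4, 31.3, 33.7 and 29.4 CPM in ES and 11.4 to 17.2 CPM in FS (median 13.5 CPM), a log2 fold change of -1.46 (SE 0.17, adjusted p 1.08e-06 by edgeR), or -1.21 without ES replicate 1. The Rieske iron-sulfur protein gene Uqcrfs1 was the member of this complex that did not pass, at -0.15, and it was chosen after its value was seen. In complex V the largest fall was in Atp5g1, which with Atp5g2 and Atp5g3 encodes the c subunit of the membrane rotor. Atp5g1 was at 49.9, 61.3, 57.1 and 56.4 CPM in ES and 17.8 to 38.7 CPM in FS (median 23.0 CPM), a log2 fold change of -1.15 (SE 0.17, adjusted p 1.74e-05 by edgeR). Atp5g3 followed at -0.55 (adjusted p 0.00573 by edgeR), with overlapping libraries, while Atp5g2, at 8.54 to 10.2 CPM in ES and 8.28 to 11.9 CPM in FS, was not called (0.062, adjusted p 0.734 by edgeR). Per length, Atp5g1 stood at 15.5% ± 2.52 of Atp5g3 in FS (SD, n = 6) and 24.2% ± 3.71 in ES (SD, n = 4).

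Complex IV holds several isoforms known from particular tissues, among them Cox7b2, Cox7a1, Cox4i2 and Cox6b2. Cox7b2, an isoform of Cox7b, was detected in ES at 1.38, 0.903, 0.683 and 2.46 CPM. Elsewhere it had at most 2 counts in any library, with 5 of 6 FS libraries at 0. The ES mean was at least 12.1-fold higher than FS, 13.1-fold higher than EpiSC_AFX and 13.6-fold higher than EpiSC_AF, taking 3 counts per library as the floor. Cox7a1, the muscle isoform of subunit VIIa, was at 17.6, 10.3, 13.6 and 12.4 CPM in ES and 2.24 to 3.42 CPM in FS, a log2 fold change of -2.24 (SE 0.21, adjusted p 7.11e-08 by edgeR). The ubiquitous counterparts fell less. Cox7b had a log2 fold change of -1.15 (-0.65 without ES replicate 1) and Cox7a2 of -0.93, and Cox7a2 lost its call without ES replicate 1 (-0.31, adjusted p 0.141 by edgeR). Cox7a2l, a related protein that links complexes III and IV into supercomplexes, was at -1.01, or -0.59 without that library.

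The opposite direction was seen in a pair of isoforms linked to low oxygen. Cox4i2, the lung and hypoxia isoform of subunit IV, had at most 2 counts in the ES libraries and 0.382 to 1.27 CPM in all 6 FS libraries, at least 5.90-fold higher. Its ubiquitous counterpart Cox4i1 was at 307, 296, 294 and 342 CPM in ES and 130 to 179 CPM in FS, a log2 fold change of -0.997 (SE 0.10, adjusted p 1.64e-07 by edgeR). Per length, Cox4i2 remained a small fraction of Cox4i1 in FS, at 1.14% ± 0.419 (SD, n = 6). Ndufa4l2, a paralogue of Ndufa4 known to be induced by hypoxia, was at 0.276, 0, 0.228 and 2.04 CPM in ES and 3.15 to 19.4 CPM in FS (median 6.84 CPM), a log2 fold change of 3.68 (SE 0.90, adjusted p 0.00199 by edgeR). Ndufa4 itself, now placed in complex IV by structural work, gave -0.99 (adjusted p 0.000361 by edgeR), or -0.62 without ES replicate 1. Per length, Ndufa4l2 stood at 16.3% ± 12.4 of Ndufa4 in FS (n = 6, SD) and 0.642% ± 1.02 in ES (n = 4, SD).

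Cox6b2, the isoform of Cox6b1 known from testis, was high in both cell types, with 38.1, 32.4, 41.2 and 32.5 CPM in ES and 15.2 to 50.9 CPM in FS, and did not pass the test (log2 fold change -0.25, adjusted p 0.421 by edgeR). Cox6a1, the common isoform of subunit VIa, was at 186, 167, 198 and 159 CPM in ES and 61.1 to 74.0 CPM in FS, a log2 fold change of -1.39 (SE 0.10, adjusted p 2.77e-09 by edgeR), and -1.37 without ES replicate 1. Cox5a, a common subunit chosen after its values were seen, gave -1.29 (SE 0.09, adjusted p 2.63e-09 by edgeR), and -1.31 without that library. Cox6b1 and Cox8a were at -0.89 and -0.68.

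**Figure D3:**
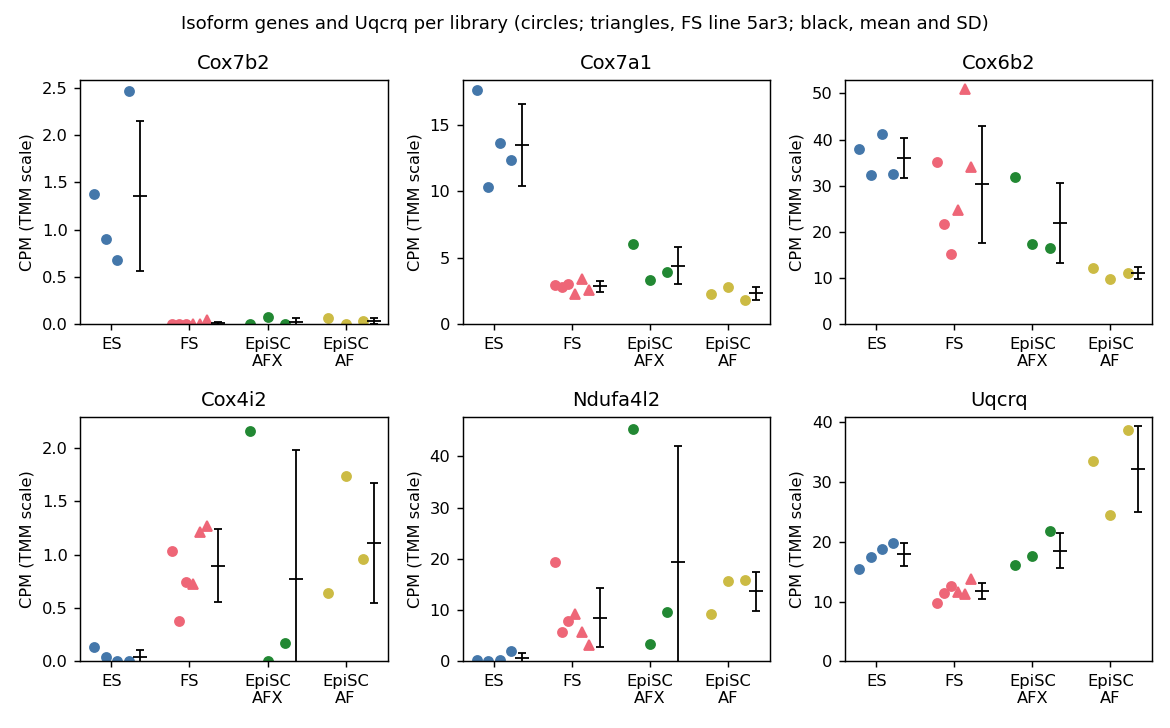
Level in CPM (TMM scale) of 5 isoform genes and of Uqcrq, 1 point per library, triangles for FS line 5ar3, with the mean and SD of each group in black; bars that would pass below 0 stop at the axis. Cox7b2 and Cox7a1 are high in ES, Cox4i2 and Ndufa4l2 are at or near 0 in ES, Cox6b2 is lowest in EpiSC_AF and Uqcrq is highest in EpiSC_AF.

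Primed cells were compared with the same ES libraries, so these comparisons share their controls with the one above. In EpiSC_AFX 9 of 13 mitochondrial mRNAs were called lower (26.2% of all genes lower, 28.5% higher, 54.7% in either direction), with a median log2 fold change of -0.70, and 45 of 81 nuclear members were called lower and 3 higher, with a median of -0.52. In EpiSC_AF 9 of 13 mitochondrial mRNAs were called lower (27% of all genes lower, 29.7% higher, 56.7% in either direction), with a median of -0.68, and 44 of 81 nuclear members were called lower and 4 higher, with a median of -0.45. Without ES replicate 1 the mitochondrial counts were 7 in EpiSC_AFX and 5 in EpiSC_AF, and the nuclear counts 39 lower in each, with 5 and 6 higher. With total counts as the only scaling the nuclear counts were 26 lower and 6 higher in EpiSC_AFX (32.8% of all genes higher, 17.9% lower), and 22 lower and 7 higher in EpiSC_AF (35.1% higher, 17.8% lower). Relative to the median of all genes, the nuclear median was -0.53 and -0.49 under the 2 scalings in EpiSC_AFX, and -0.47 and -0.45 in EpiSC_AF. As for FS, the scaling cancels in this difference by construction, so it does not test the choice of scaling.

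The mitochondrial subunits of complex IV gave the lowest median against ES, at -1.49 in EpiSC_AFX and -1.25 in EpiSC_AF, and all 3 were called in both groups. Without ES replicate 1 all 3 were still called, with medians of -0.82 and -0.71. By contrast mt-Cytb was at 1551, 1235 and 1653 CPM in EpiSC_AFX, and it did not pass the test (-0.44, adjusted p 0.0904 by edgeR). It was at 2026, 1446 and 1679 CPM in EpiSC_AF, overlapping ES (-0.22, adjusted p 0.384 by edgeR). Likewise mt-Nd2 gave -0.29 (adjusted p 0.307 by edgeR) and -0.11 (adjusted p 0.712 by edgeR).

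Nuclear complex IV again had the lowest median, -1.01 in EpiSC_AFX with 12 of 15 called lower and -1.09 in EpiSC_AF with 13 of 15 called lower. Both medians moved without ES replicate 1, to -0.68 and -0.73, with 12 and 11 called lower. The single members below are each given with, and then without, that library. In complex I, Ndufb4 was at 6.51, 5.92 and 7.01 CPM in EpiSC_AFX (log2 fold change -1.30, then -0.85) and at 6.59, 5.26 and 6.08 CPM in EpiSC_AF (-1.42, then -0.97). In complex II the largest falls were those of Sdhd in EpiSC_AFX, at -0.78 and -0.51, and Sdhb in EpiSC_AF, at -0.70 and -0.55. Sdhb was the lower of these in EpiSC_AFX once the library was left out, at -0.56. In complex III Uqcr10 fell most in EpiSC_AFX (-1.28, adjusted p 0.000188 by edgeR, then -1.01) and Uqcrb in EpiSC_AF (-1.16, adjusted p 0.00017 by edgeR, then -0.90). In complex V, Atp5j2, a subunit of the membrane part, fell most in both, at -1.14 in EpiSC_AFX (then -0.80, with Atp5g1 lower at -0.92) and -1.09 in EpiSC_AF (then -0.75).

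Cox7a1 was called lower in both, at -1.61 in EpiSC_AFX and -2.54 in EpiSC_AF. Ndufa4l2 was called higher in both, with 45.2, 3.35 and 9.65 CPM in EpiSC_AFX (log2 fold change 4.86) and 9.28, 15.7 and 15.95 CPM in EpiSC_AF (4.35), so that 1 EpiSC_AFX library carried most of its mean. Cox4i2 was at 2.16, 0 and 0.169 CPM in EpiSC_AFX, a range that overlaps ES, and at 0.642, 1.73 and 0.955 CPM in EpiSC_AF, which does not. Its mean in EpiSC_AF was at least 7.32-fold higher than the ES floor. Its mean in EpiSC_AFX rests on replicate 1, and the other libraries together, at 0.0847 CPM, lie below that floor of 0.152 CPM. Cox6b2 was called lower in EpiSC_AF, at 12.2, 9.80 and 11.2 CPM (log2 fold change -1.70, SE 0.33, adjusted p 0.000316 by edgeR), and not in EpiSC_AFX, at 32.0, 17.3 and 16.5 CPM (-0.71, adjusted p 0.0671 by edgeR).

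FS and the EpiSC groups were then compared directly. Against EpiSC_AFX, 7 of 13 mitochondrial mRNAs were called lower in FS (2.1% of all genes lower, 2.89% higher, 5% in either direction), with a median log2 fold change of -0.71. Of 81 nuclear members 4 were called lower and 0 higher, with a median of -0.034, and the median of all genes was 0.038. The 7 were mt-Nd4l, mt-Atp8, mt-Cytb, mt-Nd4, mt-Nd2, mt-Nd1 and mt-Nd5. The largest differences were those of mt-Nd4l, at 61.9, 54.5 and 72.5 CPM in EpiSC_AFX and 21.3 to 41.8 CPM in FS (-0.96, SE 0.20, adjusted p 0.0078 by edgeR), mt-Atp8 (-0.94, adjusted p 0.0294 by edgeR) and mt-Cytb (-0.89, SE 0.19, adjusted p 0.0108 by edgeR). These calls changed when single libraries were left out. Of the 13, 0 were called without EpiSC_AFX replicate 3, 2 without EpiSC_AFX replicate 1, and 3 without FS replicate 1 or FS replicate 2. The share of all genes called lower moved too. It was 0.997% without EpiSC_AFX replicate 3, 1.15% without EpiSC_AFX replicate 1, 2.2% without FS replicate 1 and 1.63% without FS replicate 2. The loss of calls was therefore not particular to the members where that share fell. The 4 nuclear genes, all listed here after their values were seen, were Uqcrq, Atp5d, Ndufs6 and Sdha, with log2 fold changes between -0.66 and -0.36. The nuclear count was 0 without EpiSC_AFX replicate 3, 1 without EpiSC_AFX replicate 2, and 2 without EpiSC_AFX replicate 1, FS replicate 2 or FS replicate 4. Of all genes 1.19% were called lower without EpiSC_AFX replicate 2 and 1.72% without FS replicate 4, with the other shares as above. The nuclear count was 0 with total counts as the only scaling.

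Against EpiSC_AF, 9 of 13 mitochondrial mRNAs were called lower in FS (8.81% of all genes lower, 7.84% higher, 16.6% in either direction), with a median log2 fold change of -0.85. They included mt-Atp8, at 78.6, 58.6 and 71.2 CPM in EpiSC_AF and 21.4 to 35.1 CPM in FS (-1.26, SE 0.24, adjusted p 0.00122 by edgeR), mt-Cytb (-1.10, SE 0.19, adjusted p 0.000607 by edgeR) and mt-Nd4l (-1.06, SE 0.19, adjusted p 0.00113 by edgeR). Leaving out each library in turn gave 7 to 9 calls. The 4 not called were mt-Co1, mt-Co3, mt-Nd3 and mt-Nd6. In both comparisons mt-Co1 and mt-Co3 were among the smallest differences: against EpiSC_AF mt-Co1 was at -0.49 (adjusted p 0.126 by edgeR) and mt-Co3 at -0.34 (adjusted p 0.542 by edgeR). Of the nuclear members 6 were called lower and 2 higher, with a median of -0.082. All are listed here after their values were seen. The lower ones were Uqcrq, Atp5g1, Ndufs8, Atp5d, Ndufb10 and Ndufb7, and the higher ones Cox6b2 (1.45, SE 0.31, adjusted p 0.00371 by edgeR) and Atp5sl (0.53, SE 0.16, adjusted p 0.0276 by edgeR). The nuclear count was 2 without EpiSC_AF replicate 1, 3 without EpiSC_AF replicate 2 or 3, 5 without FS replicate 2 or FS replicate 4, and 2 with total counts as the only scaling. Shares of all genes called fell too. Without EpiSC_AF replicate 1 they were 5.59% lower and 3.83% higher, without replicate 2 6.01% and 4.42%, and without replicate 3 6.2% and 4.18%. They were 7.79% and 6.89% without FS replicate 2, and 8.29% and 7% without FS replicate 4.

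**Figure D4:**
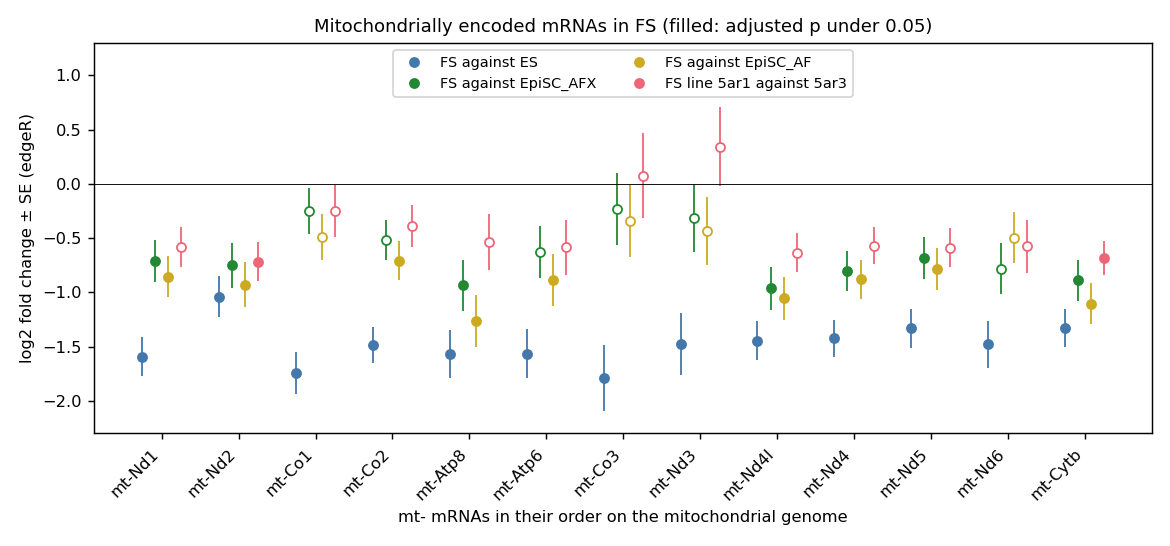
Log2 fold change and SE (edgeR) of the 13 mitochondrial mRNAs in their order on the mitochondrial genome, for FS against ES, EpiSC_AFX and EpiSC_AF and for FS line 5ar1 against 5ar3, with filled points where the adjusted p is under 0.05. FS against ES lies between -1.79 and -1.04 for all 13, and mt-Co1, mt-Co3 and mt-Nd3 lie nearest to 0 in the comparisons with EpiSC_AFX.

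The primed cultures were also compared with each other. Between EpiSC_AFX and EpiSC_AF 0 of 13 mitochondrial mRNAs were called by edgeR (2.83% of all genes lower in EpiSC_AFX, 1.43% higher, 4.26% in either direction), 0 had an unadjusted p under 0.05, and DESeq2 called 0. Among nuclear members edgeR called 1, against 3 by DESeq2, where 2.65% of all genes were called higher and 4.8% lower. When only these groups were fitted, 7 members were called (4 higher, 3 lower). In that fit 5.85% of all genes were called higher and 7.78% lower, so the rise was not particular to the members. The 1 called in the main fit was Uqcrq, a small subunit of complex III. It was at 33.5, 24.5 and 38.7 CPM in EpiSC_AF and at 16.1, 17.7 and 21.8 CPM in EpiSC_AFX (-0.80, SE 0.19, adjusted p 0.0199 by edgeR), without overlap. The call was lost without EpiSC_AF replicate 1, EpiSC_AF replicate 3, EpiSC_AFX replicate 1 or EpiSC_AFX replicate 2. Uqcrq was also higher in EpiSC_AF than in ES (0.85, SE 0.17, adjusted p 0.000484 by edgeR), where it was at 15.5, 17.5, 18.9 and 19.8 CPM, and lower in FS than in ES (-0.61, SE 0.15, adjusted p 0.0016 by edgeR), with FS at 9.71 to 13.7 CPM.

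Uqcrq lies on chromosome 11 (chr11:53427922-53430831, minus strand, GRCm38), and genes of that chromosome as a whole were higher in EpiSC_AF. Of 1396 tested genes on chromosome 11, 31.2% had lower calls in FS than EpiSC_AF, with a median log2 fold change of -0.39, against 7% of 17100 on other chromosomes, with a median of 0.060. Against ES, 38.9% of the genes on chromosome 11 were called higher in EpiSC_AF and 29% of those elsewhere. The nuclear members on it are Atp5g1, Atp5h, Uqcr10 and Uqcrq, of which 2 of 4, Atp5g1 and Uqcrq, had lower calls in FS, with a median of -0.50, against 4 of 77 on other chromosomes, with a median of -0.064. Assembly factors, which build the complexes and are not subunits, gave 6 of 8 called lower on chromosome 11, among them Sco1 (-1.23) and Cox10 (-1.03), and 0 of 40 lower elsewhere. Proteins of the mitochondrial ribosome gave 7 of 10 on chromosome 11 and 0 of 66 elsewhere. The part of this chromosome-wide difference in the result for Uqcrq was not tested.

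**Figure D5:**
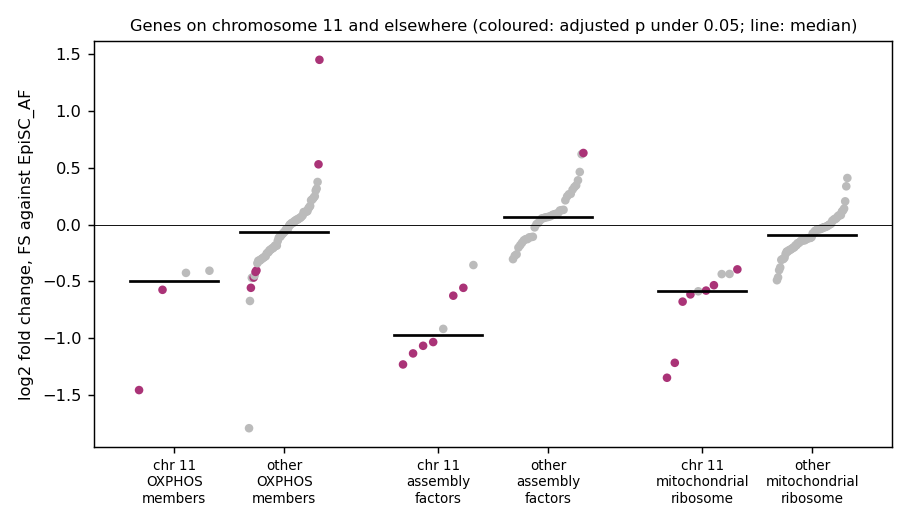
Log2 fold change (edgeR) of FS against EpiSC_AF for nuclear members, assembly factors and proteins of the mitochondrial ribosome, on chromosome 11 and on other chromosomes, with a line at each median and genes with an adjusted p under 0.05 coloured. In each set the genes on chromosome 11 lie lower, with medians of -0.50, -0.98 and -0.58 against -0.064, 0.069 and -0.093.

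Within FS, the libraries of line 5ar1 had lower mitochondrial mRNA than those of line 5ar3. The former were of passages 10, 12 and 14 and the latter of passages 12, 4 and 5, so line and passage cannot be fully told apart. The sum was 9993, 10763 and 8197 CPM in 5ar1 and 11792, 12976 and 12994 CPM in 5ar3, without overlap, and 10 of the 13 mRNAs did not overlap. Of these 13, 2 were called by edgeR, both lower in 5ar1 (2.02% of all genes lower, 1.86% higher, 3.88% in either direction). They were mt-Nd2, at 560, 731 and 547 CPM against 1091, 803 and 1132 CPM (-0.72, SE 0.18, adjusted p 0.0335 by edgeR), and mt-Cytb, at 542, 697 and 597 CPM against 1001, 974 and 980 CPM (-0.69, SE 0.16, adjusted p 0.0205 by edgeR). DESeq2 called 6, all lower, where 3.82% of all genes were called lower and 3.14% higher. No nuclear member was called by edgeR, and 6 had an unadjusted p under 0.05. DESeq2 called 2 of 81 nuclear members, both higher, which is near that share of all genes. The median log2 fold change was -0.57 for mitochondrial and 0.16 for nuclear members. Marker genes differed too. In 5ar1, edgeR called 2 of 3 neuroectoderm markers (median log2 fold change -4.27) and 1 of 5 streak and endoderm markers lower. It called 1 of 4 pluripotent and 1 of 6 tested fibroblast markers higher. The bearing of this on the mitochondrial mRNAs was not tested. The edgeR calls of mt-Nd2 and mt-Cytb were both lost without FS replicate 3 or FS replicate 6. That of mt-Nd2 was also lost without FS replicate 1 or 4, and that of mt-Cytb also without FS replicate 5. The lines also bear on the comparison with EpiSC_AFX. With 5ar1 as the only FS line 10 of 13 mitochondrial mRNAs were called lower (1.85% of all genes lower, 2.27% higher). With 5ar3 alone 2 were called lower (3.59% of all genes lower, 5.51% higher).

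Other genes of the pathway were described by lists. Between FS and ES (32.9% of all genes higher, 29.9% lower), 5 of 48 assembly factors were called higher and 11 lower, with a median log2 fold change of -0.064. Ndufaf5, a complex I assembly factor, gave -1.36, and Tmem70, an ATP synthase assembly factor, 0.91. Of 18 genes for mobile carriers and coenzyme Q synthesis, 3 were called higher and 9 lower; Cyct, the testis form of cytochrome c, was at 1.58 to 2.49 CPM in ES and at most 0.159 CPM in FS. Of 28 genes for upkeep and transcription of the mitochondrial genome, 2 were called higher and 14 lower, including the replicative polymerase Polg (-0.74), the RNA polymerase Polrmt (-0.39) and its partner Tfb2m (-0.71). Of 76 mitochondrial ribosome genes 3 were called higher and 28 lower (median -0.25). Of 13 tested mitochondrial rRNA and tRNA rows 8 were called lower. For mt-Rnr2 the log2 fold change was -1.15, and it was not called without ES replicate 1 (-0.54, adjusted p 0.114 by edgeR). Of 3 tested adenine nucleotide and phosphate carriers 2 were called lower, with Slc25a4 at -1.32. Of 11 tested regulators 5 were called lower and 2 higher. Among them Gabpa gave -0.96, Esrra -0.73, Nrf1 -0.28 and the hypoxia-responsive factor Epas1 -3.44, and Esrrb, an orphan nuclear receptor of the naive network, was at 542 to 707 CPM in ES and at most 2.17 CPM in FS. Myc gave 2.49. Without ES replicate 1 the counts higher and lower were 9 and 9 among assembly factors, 2 and 6 among carriers and coenzyme Q genes, 2 and 11 in genome upkeep, 4 and 24 in the mitochondrial ribosome, 0 and 3 among mitochondrial rRNA and tRNA rows, 0 and 2 among nucleotide and phosphate carriers and 2 and 6 among regulators.

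In EpiSC_AFX against ES (28.5% of all genes higher, 26.2% lower) the same lists gave 4 higher and 9 lower of 48 assembly factors, 2 and 4 of 18 carriers and coenzyme Q genes, 1 and 9 of 28 in genome upkeep, 4 and 21 of 76 in the mitochondrial ribosome, and 2 and 4 of 11 regulators. Without ES replicate 1 these were 10 and 7, 3 and 3, 2 and 8, 5 and 15, and 3 and 5. In EpiSC_AF against ES (29.7% higher, 27% lower) they gave, in the same order, 9 and 8, 2 and 4, 2 and 8, 10 and 17, and 2 and 6, and without ES replicate 1 they gave 12 and 7, 3 and 3, 3 and 7, 12 and 12, and 1 and 5. Several of these shares lie near or below those of all genes. Between FS and EpiSC_AFX (2.89% of all genes higher, 2.1% lower) 2 genes of all lists were called, Etfdh, which feeds electrons from fatty acid oxidation to coenzyme Q (-0.57), and Hif1a (-0.48). FS against EpiSC_AF (7.84% higher, 8.81% lower) gave 3 genes called higher: Cycs, the somatic cytochrome c, at 0.87, the assembly factor Ndufaf3 at 0.63, and the coactivator Ppargc1b at 1.33. Called lower were 6 of 48 assembly factors and 7 of 76 mitochondrial ribosome genes, all on chromosome 11 as given above, and 1 gene in each of 5 other lists. These were Etfdh (-0.62), Slc25a4, the adenine nucleotide carrier known from heart and muscle (-0.77), Elac2, which cuts the tRNA ends (-1.09), Epas1 (-1.53) and mt-Tw (-1.18). Elac2 also lies on chromosome 11, where 1 of 5 genome upkeep genes was called lower, against 0 of 23 elsewhere. No gene for upkeep and transcription of the mitochondrial genome was called between FS and EpiSC_AFX by edgeR, with 1 at an unadjusted p under 0.05. Between FS lines Slc25a5, the ubiquitous adenine nucleotide carrier, was called higher in 5ar1 (0.83), as was Esrra (0.78).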

How the data were processed

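The authors deposited raw counts per gene, with symbols and Ensembl identifiers. Reads were trimmed with Trim Galore, aligned with TopHat2 2.1.0 to mm10 and counted with featureCounts 1.5.0, per the submitters' processing notes; per the labels' protocols, extraction used Trizol plus columns, and the library kit keeps strand. The annotation release, strand setting and treatment of multi-mapping reads are not given in the sources used here. A further 6 columns matched no sample and were not used.

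Counts were analysed with edgeR 4.0.16 (R 4.3.3): filterByExpr, TMM scaling and robust quasi-likelihood tests, fitted to all 16 libraries with 1 mean for each group, or for each line in 5ar1 against 5ar3. Benjamini-Hochberg adjustment covered all 18555 tested genes, and genes with an adjusted p under 0.05 were called. CPM are on the TMM scale. Lengths and positions came from GENCODE M21 on GRCm38. Shares have 95% Wilson intervals, and the floor is 3 counts per library. On simulated counts for FS against ES, with 18555 genes, 76% of 100 genes changed by 1 and 13% of 100 changed by 0.5 on the log2 scale were recovered. Only these genes were changed, whereas 62.8% of all genes were called in the real comparison. The adjustment is stricter when few genes change, so these rates do not describe recovery in the real comparison.

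Alternatives were DESeq2 1.42.0 (size factors, Wald test), total counts only, other filters, library sizes without mt- rows, only the groups compared, single FS lines and leaving out each library; adding nuclear copies to the mt- rows was chosen after seeing the data. The members, lists and named genes (all mt- mRNAs, the Sdh genes, isoforms, the largest called change in each direction per complex against ES, and the 3 largest called changes in each direction elsewhere) were chosen with earlier results of these data known.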

Additional observations from a re-analysis of the deposited data

Results flagged for a closer look

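In groups of 4 to 10 libraries, a library was marked when its gap to the nearest other library was large for the range of the group. Of 86 groups of values 17 were marked, where chance marks about 1 in 20, and 15 of the 17 were in ES replicate 1, always as the highest value. These were the summed mitochondrial mRNAs (49581 CPM), the summed nuclear members (12551 CPM), the share of counts in mt-Rnr2 (38.1%), mt-Co1 (26842 CPM), mt-Co3 (5973 CPM), mt-Atp6 (2751 CPM), mt-Nd6 (621 CPM), mt-Nd3 (322 CPM), Cox7b (343 CPM), Atp5j2 (234 CPM), Sdhd (187 CPM), Uqcr10 (162 CPM), Cox7a2 (161 CPM), Uqcrb (56.4 CPM) and Ndufb4 (28.8 CPM). The others were ES replicate 4 for Ndufa4l2 (2.04 CPM) and FS replicate 6 for Cox7b2 (0.0471 CPM, the only FS library above 0).

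For 3 members the change from ES differed between groups in a test of the difference. ES cancels in that difference, so these are the same tests as 5ar1 against 5ar3 and EpiSC_AFX against EpiSC_AF above, and each call was lost on leaving out certain single libraries, as given there. The change from ES was larger in FS line 5ar1 than in 5ar3 by -0.69 on the log2 scale for mt-Cytb and by -0.72 for mt-Nd2, which were lower in 3 of 3 libraries of 5ar1 than in any of 5ar3. Line and passage cannot be fully told apart between these libraries. The change of Uqcrq from ES differed by -0.80 between EpiSC_AFX and EpiSC_AF.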

How the results depend on the processing

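No paired analysis was possible because replicate numbers follow accession order. Calls are of nuclear members unless stated. With total counts only they were 34 (main 59) for FS against ES, 29 (48) for EpiSC_AF against ES, 0 (4) for FS against EpiSC_AFX and 2 (8) for FS against EpiSC_AF; mitochondrial calls were 4 (9) for EpiSC_AF against ES and 0 (2) for 5ar1 against 5ar3. Fitting only the groups compared gave 2 for FS against EpiSC_AFX with 4 (7) mitochondrial, 5 for FS against EpiSC_AF, 7 (1) for EpiSC_AFX against EpiSC_AF, and 0 mitochondrial for the lines. DESeq2's Wald test gave 7, 3 (EpiSC_AFX against EpiSC_AF), 2 (lines, 0) and 6 mitochondrial (lines). Shares of all genes called moved too, given here as higher and lower. For FS against EpiSC_AFX they were 2.85% and 1.07% with total counts, 2.05% and 1.18% with only these groups, and 5.45% and 3.39% by DESeq2. For FS against EpiSC_AF they were 7.23% and 5.75% with total counts and 6.95% and 7.86% with only these groups. For the lines they were 1.5% and 1.2% with total counts, 0.858% and 1.39% with only these lines, and 3.14% and 3.82% by DESeq2. FS against EpiSC_AFX gave 2 with no low-count filter, 1 with 5ar1 only and 2 mitochondrial with 5ar3 only; FS against EpiSC_AF gave 4 with 5ar1 only. The cause was not tested. Against ES, leaving out single libraries gave 52 to 62 nuclear and 13 to 13 mitochondrial calls for FS, 38 to 51 and 6 to 10 for EpiSC_AFX, and 34 to 49 and 5 to 9 for EpiSC_AF (5 without ES replicate 1 or EpiSC_AF replicate 3). It gave 0 to 5 and 0 to 8 for FS against EpiSC_AFX, 2 to 9 and 7 to 9 for FS against EpiSC_AF, 0 to 1 and 0 to 0 for EpiSC_AFX against EpiSC_AF, and 0 to 1 and 0 to 3 for the lines. For FS against EpiSC_AFX the share of all genes called lower then lay between 0.997% and 2.52%. Reversed against ES in FS were Ndufa10 (0.064) and Ndufa7 (0.029) under total counts, and Ndufa2 (main -0.0067), at 0.43 under total counts and between -0.12 and 0.34 when single libraries were left out, the highest without ES replicate 1. Depth limits Cox7b2, Cox4i2, Cox6a2 and Cox8b.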
